A study of Mus musculus with 4 samples.

Results

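The 8 genes described here belong to the PI3K-AKT-mTOR pathway: Pik3ca, Pik3r1, Pik3r3, Inpp4b, Akt1, Akt2, Tsc1 and Deptor. They were taken by symbol, each through the probe set with a single gene symbol and the highest mean over the arrays, and all 8 were among the 13956 genes tested. Mouse tumour cell lines 365 and 167 each received a pMIG retrovirus, either for re-expression of Smarcb1 or without an insert (empty vector), and total RNA was taken 3 days after infection. Whole-transcript arrays were used, 1 for each line and vector, 4 in all. Both lines were derived from soft tissue tumours, labelled MRT, that had lost Smarcb1 in p53 null mice of C57BL6/SV129J background that were heterozygous for Smarcb1, so all 4 cultures lack p53. Each line comes from 1 tumour, the labels name no repeat cultures, and so p-values measure only the spread between these arrays.

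Class I PI3K enzymes pair a catalytic subunit, such as that encoded by Pik3ca, with a regulatory subunit, such as those encoded by Pik3r1 and Pik3r3, and make the membrane lipid PIP3 when growth factor receptors or their adaptors recruit them. Lipid phosphatases, among them the enzyme encoded by Inpp4b, remove these signals. The lipids bring AKT kinases to the membrane, AKT inhibits the TSC complex, of which Tsc1 encodes a scaffold subunit, and the release of RHEB from the TSC complex activates mTORC1. Deptor encodes a protein that binds mTOR and inhibits both of its complexes. SMARCB1 belongs to the SWI/SNF complex, which moves nucleosomes, and its loss marks malignant rhabdoid tumours. The arrays measure RNA, and the activity of these enzymes is regulated largely by phosphorylation and binding, which RNA levels do not show.

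Promoter sequences are given for Pik3r1, Pik3r3 and Inpp4b. They are 3 of the 4 genes whose RNA differed by at least 1.5-fold in the same direction in both lines, though none passed the vector test. Each window holds 250 bases before and 50 after an annotated start site in RefSeq (GRCm38.p6), 5′ to 3′ on the strand of the gene. Windows were matched for 7 of the 8 genes, all but Deptor, with 14 windows in all. Pik3r1 has 2 start sites, on the minus strand, at chr13:101768168-101768467 (upstream) and chr13:101692581-101692880 (downstream). The Pik3r3 window of the most upstream of its 3 start sites is at chr4:116221166-116221465 and the Inpp4b window at chr8:81342312-81342611, both on the plus strand. Capitals mark matches, on either strand, to the GC box GGGCGG, the CCAAT box CCAAT, the TATA box TATAAA or the TEAD motif GGAATG.
Pik3r1 upstream: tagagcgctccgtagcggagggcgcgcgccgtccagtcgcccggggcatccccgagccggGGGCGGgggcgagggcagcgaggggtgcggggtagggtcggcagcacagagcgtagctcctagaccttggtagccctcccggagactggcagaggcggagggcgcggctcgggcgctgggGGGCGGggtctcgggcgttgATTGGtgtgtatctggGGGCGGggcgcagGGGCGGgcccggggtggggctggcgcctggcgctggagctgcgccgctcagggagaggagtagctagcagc
Pik3r1 downstream: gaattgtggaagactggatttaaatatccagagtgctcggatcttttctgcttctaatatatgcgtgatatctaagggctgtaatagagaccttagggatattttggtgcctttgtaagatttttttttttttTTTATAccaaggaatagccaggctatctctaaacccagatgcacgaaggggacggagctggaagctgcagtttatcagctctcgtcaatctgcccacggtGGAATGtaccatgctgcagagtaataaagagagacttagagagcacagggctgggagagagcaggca
Pik3r3 upstream: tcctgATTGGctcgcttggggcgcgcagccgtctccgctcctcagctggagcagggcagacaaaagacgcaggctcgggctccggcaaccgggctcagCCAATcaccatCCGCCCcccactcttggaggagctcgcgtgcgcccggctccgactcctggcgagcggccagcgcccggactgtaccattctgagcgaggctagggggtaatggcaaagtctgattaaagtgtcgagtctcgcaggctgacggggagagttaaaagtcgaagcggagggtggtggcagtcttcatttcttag
Inpp4b: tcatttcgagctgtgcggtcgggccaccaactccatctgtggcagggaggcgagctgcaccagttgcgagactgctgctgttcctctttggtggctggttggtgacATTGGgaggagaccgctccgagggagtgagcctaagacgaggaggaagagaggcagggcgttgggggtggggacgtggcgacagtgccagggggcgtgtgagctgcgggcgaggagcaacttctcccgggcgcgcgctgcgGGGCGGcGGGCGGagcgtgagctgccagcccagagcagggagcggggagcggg

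The 2 start sites of Pik3r1 lie in unlike sequence. The upstream window had a GC content of 75.7% with 34 CpG dinucleotides and held 4 GC boxes and 1 CCAAT box. The downstream window had a GC content of 43.7% with 6 CpG dinucleotides and held 1 TATA box and 1 TEAD motif. Over all 32851 RefSeq windows of this length the median GC content was 52.7% and the median number of CpG dinucleotides 7. The most upstream Pik3r3 window had 63% GC, 1 GC box and 2 CCAAT boxes, and the Inpp4b window had 68.3% GC, 2 GC boxes and 1 CCAAT box. Pik3r3 windows further downstream, not printed, had 58% and 47.3% GC, with a GC box but no CCAAT box. GC boxes occurred in 35.7% of all windows, CCAAT boxes in 37.4%, TATA boxes in 13.6% and TEAD motifs in 14.7%. The FOXO motif GTAAACA (3.65% of all windows), the AP-1 motif TGANTCA (7.81%) and the E-box CACGTG (7.15%) were searched in the same way and had no match in the 4 windows printed. No searched motif overlapped another kind in them. These matches describe letters and were not tested for binding.

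The vector labels were checked on Smarcb1, whose log2 signal was 9.61 in line 365 and 7.83 in line 167 with the Smarcb1 vector, against 6.01 in line 365 and 4.61 in line 167 with the empty vector. Its mean difference was 3.41 ± 0.20 (moderated SE; limma adjusted p = 0.0371). Smarcb1 signal was also higher in line 365 than in line 167 with either vector (log2 1.59 ± 0.20, moderated SE; limma adjusted p = 0.0177). With the line alone in the model that call ended (limma adjusted p = 0.599). What part the line difference in Smarcb1 has in the values below was not tested. The labelled tissue was compared with cell type markers, read against the level below which dim genes were left out (log2 4.27). This level is the 30th percentile of mean signal and not a measured background. By construction 13956 of the 19938 genes had a mean at or above this level, so lying above it does not show expression. On all 4 arrays 8 of 8 mesenchymal, 5 of 6 epithelial, 4 of 5 neuronal, 3 of 5 skeletal muscle, 2 of 5 haematopoietic and 1 of 5 endothelial markers matched lay above it. The leukocyte genes Ptprc, Adgre1 and Itgam and the epithelial adhesion gene Epcam had means below it, while the macrophage gene Cd68 (mean 9.04), the T cell gene Cd3e and the keratin gene Krt19 (6.26) had means above it. The endothelial cadherin gene Cdh5 had 8.29 with Smarcb1 and 9.06 with empty vector in line 365, against 3.64 with Smarcb1 and 3.78 with empty vector in line 167. The median over the mesenchymal markers was 6.33 in line 365 and 10.3 in line 167 with Smarcb1, against 6.26 in line 365 and 8.44 in line 167 with empty vector, so it was higher with Smarcb1 mainly in line 167 and lower in line 365 than in line 167. The part of this in the values below was not tested.

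Smarcb1 against empty vector was compared in a limma model with terms for vector and cell line, adjusted by Benjamini-Hochberg over all 13956 genes. Of the 8 regulators 0 passed at an adjusted p below 0.05, where 0.0645% of all tested genes did. At an unadjusted p below 0.05 there were 4 of 8, against 11.6% of all tested genes. Deptor and Pik3r1 were at least 1.5-fold higher with Smarcb1 in both lines (2.79% of all tested genes), and Inpp4b and Pik3r3 at least 1.5-fold lower in both (1.35%). The genes were chosen with earlier results of these arrays known, so these shares describe the choice as well as the data. The other 4, Akt1, Akt2, Pik3ca and Tsc1, did not reach that size in both lines. Over the 8 genes the median change was -0.06 in line 365 and -0.12 in line 167, against -0.01 in line 365 and -0.06 in line 167 for all tested genes. The median size of the change regardless of sign was 0.47 in line 365 and 0.67 in line 167, against 0.19 in line 365 and 0.22 in line 167 for all tested genes.

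**Figure D1:**
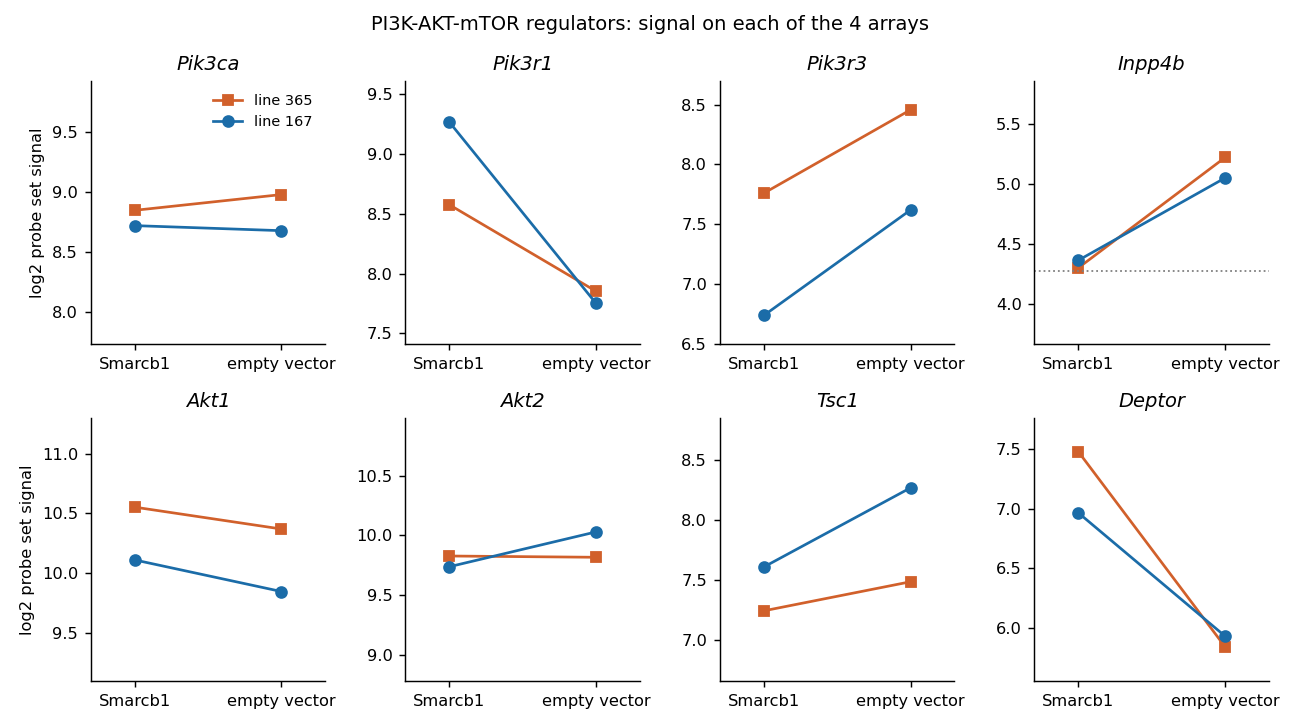
Log2 probe set signal (vertical axis, each panel spanning the same range) of the 8 genes on the Smarcb1 array and the empty-vector array of line 365 (squares) and line 167 (circles), with a line joining the arrays of a cell line. The dotted line in the Inpp4b panel is the level of 4.27 below which dim genes were left out. The Smarcb1 arrays lie above both empty-vector arrays for Deptor and Pik3r1 and below both for Inpp4b.

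Among the catalytic and regulatory subunits of PI3K, the regulatory genes Pik3r1 and Pik3r3 differed in opposite directions and the catalytic gene Pik3ca had small differences of unlike sign. Pik3r1, which encodes p85-alpha and its shorter isoforms, had log2 signals of 8.58 in line 365 and 9.27 in line 167 with Smarcb1, against 7.85 in line 365 and 7.75 in line 167 with empty vector. Both Smarcb1 arrays lay above both empty-vector arrays, a pattern shared by 13.6% of all tested genes. The difference was 1.65-fold in line 365 and 2.86-fold in line 167, with a mean log2 change of 1.12 ± 0.24 (moderated SE; limma unadjusted p = 0.00598, adjusted p = 0.223). The empty-vector arrays of the lines were 0.10 apart, and the Smarcb1 arrays 0.69 apart, with line 365 the lower. The array gives 1 value for all Pik3r1 transcripts, so those from the upstream and downstream start sites printed above were not separated.

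Pik3r3, which encodes the regulatory subunit p55-gamma, had signals of 7.76 in line 365 and 6.74 in line 167 with Smarcb1, against 8.46 in line 365 and 7.62 in line 167 with empty vector. Within each line the Smarcb1 array was the lower, but the groups overlapped, because the Smarcb1 array of line 365 lay above the empty-vector array of line 167. The changes were close in size, at -0.70 in line 365 and -0.88 in line 167, with a mean of -0.79 ± 0.17 (moderated SE; limma unadjusted p = 0.00707, adjusted p = 0.238). Pik3ca, which encodes the catalytic subunit p110-alpha, had 8.85 in line 365 and 8.72 in line 167 with Smarcb1, against 8.98 in line 365 and 8.68 in line 167 with empty vector. Its change was -0.13 in line 365 and 0.04 in line 167, the mean lay at -0.04 ± 0.15 (moderated SE; limma adjusted p = 0.932), and the vector groups overlapped.

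Inpp4b, a phosphatase that removes a phosphate from the PI3K product PI(3,4)P2, was lower with Smarcb1 in both lines. Its signals were 4.30 in line 365 and 4.36 in line 167 with Smarcb1, against 5.22 in line 365 and 5.05 in line 167 with empty vector. Both Smarcb1 arrays lay below both empty-vector arrays, as for 15.5% of all tested genes. The decrease was 1.89-fold in line 365 and 1.61-fold in line 167, with a mean log2 change of -0.81 ± 0.15 (moderated SE; limma unadjusted p = 0.00401, adjusted p = 0.190). The Smarcb1 arrays lay barely above the filter level of 4.27, which is a percentile of mean signal and not a measured background. Whether they exceed background was not tested, so the size of the decrease is uncertain.

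The AKT kinase genes differed little between the vectors. Akt1, the isoform tied mainly to growth and survival, had 10.6 in line 365 and 10.1 in line 167 with Smarcb1, against 10.4 in line 365 and 9.85 in line 167 with empty vector. The difference was 0.18 in line 365 and 0.26 in line 167, with a mean of 0.22 ± 0.12 (moderated SE; limma adjusted p = 0.536), and the vector groups overlapped across the lines. Akt2, the isoform tied mainly to insulin-stimulated glucose uptake, was read from the brighter of its 2 probe sets in the platform annotation, and where that probe set maps was not checked. It had 9.83 in line 365 and 9.74 in line 167 with Smarcb1, against 9.82 in line 365 and 10.0 in line 167 with empty vector. Its change was 0.01 in line 365 and -0.29 in line 167 (mean -0.14 ± 0.14, moderated SE; limma adjusted p = 0.737). A dimmer probe set of Akt2 gave -0.02 in line 365 and -0.16 in line 167.

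At the mTOR end of the pathway, Tsc1 was lower and Deptor higher with Smarcb1 in each line. Tsc1 had 7.24 in line 365 and 7.61 in line 167 with Smarcb1, against 7.49 in line 365 and 8.27 in line 167 with empty vector. The decrease was 1.18-fold in line 365 and 1.58-fold in line 167, the mean log2 change was -0.45 ± 0.19 (moderated SE; limma unadjusted p = 0.0701, adjusted p = 0.472), and the vector groups overlapped. Deptor had 7.47 in line 365 and 6.96 in line 167 with Smarcb1, against 5.84 in line 365 and 5.93 in line 167 with empty vector. Both Smarcb1 arrays stood more than 1 log2 unit above the empty-vector arrays, which were 0.09 apart. The difference was 3.10-fold in line 365 and 2.04-fold in line 167, and the mean log2 change of 1.33 ± 0.23 (moderated SE; limma unadjusted p = 0.00268, adjusted p = 0.166) was the largest of the 8 genes in size. Of all tested genes, 98.2% had a mean change no larger in size than that of Deptor.

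**Figure D2:**
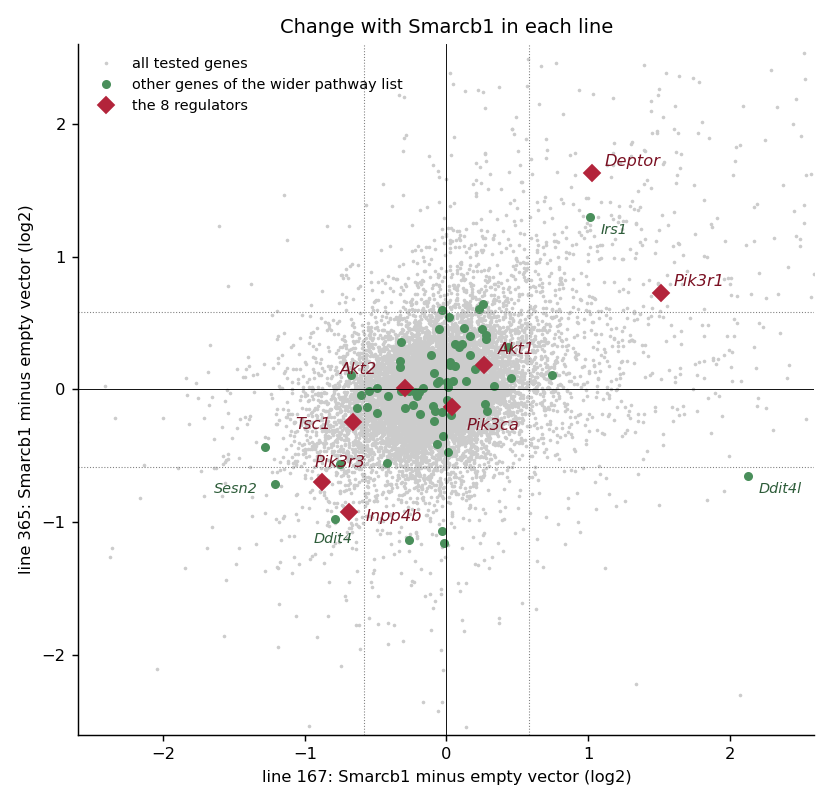
Log2 change with Smarcb1 against empty vector in line 167 (horizontal axis) and in line 365 (vertical axis) for all tested genes (grey), the wider pathway list (green) and the 8 regulators (red). Dotted lines mark 1.5-fold, and the axes end short of the largest changes of other genes. Deptor and Pik3r1 lie beyond 1.5-fold higher in both lines, Inpp4b and Pik3r3 beyond 1.5-fold lower in both.

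How far the responses of the lines lay apart could be described but not tested, with 1 array for each line and vector. The change in line 365 minus that in line 167 was -0.79 for Pik3r1, 0.60 for Deptor and 0.42 for Tsc1. These gaps were no smaller than those of 90.6% of all tested genes for Pik3r1, 83.4% for Deptor and 70.3% for Tsc1. Pik3r3 and Inpp4b had gaps of 0.18 and -0.23. The sign of the change was the same in both lines for 6 of the 8 genes, where 60.1% of all tested genes had the same sign, and it differed for Pik3ca and Akt2. With its dimmer probe set, Akt2 was lower in both lines, at -0.02 in line 365 and -0.16 in line 167.

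Line 365 against line 167, averaged over both vectors, gave 1 call among the 8 genes in the same limma fit, where 10.9% of all tested genes passed. Pik3r3 was higher in line 365, with a mean of 8.11 in line 365 and 7.18 in line 167, a 1.90-fold difference (log2 0.93 ± 0.17, moderated SE; limma adjusted p = 0.0405). The difference was 1.02 among the Smarcb1 arrays and 0.84 among the empty-vector arrays. With the line alone in the model, which drops the vector term, the call ended (limma adjusted p = 0.242). Akt1 had a mean of 10.5 in line 365 and 9.98 in line 167 (log2 0.48 ± 0.12, moderated SE; limma adjusted p = 0.0666), and it passed when genes below the 50th percentile of mean signal were left out (adjusted p = 0.0481). Tsc1 had a mean of 7.36 in line 365 and 7.94 in line 167 (adjusted p = 0.129).

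The arrays of the lines did not overlap for 4 of the 8 genes, Pik3r3, Pik3ca and Akt1 with line 365 above and Tsc1 with line 365 below, against 55.8% of all tested genes. Pik3ca was only 0.21 apart on average (limma adjusted p = 0.398). Pik3r1, Inpp4b, Akt2 and Deptor overlapped between the lines, with limma adjusted p between 0.468 for Pik3r1 and 0.857 for Inpp4b. In Pik3r1, Deptor, Inpp4b and Akt2 the sign of the line difference was not the same in both vectors. Deptor differed by 0.51 among the Smarcb1 arrays and by -0.09 among the empty-vector arrays.

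**Figure D3:**
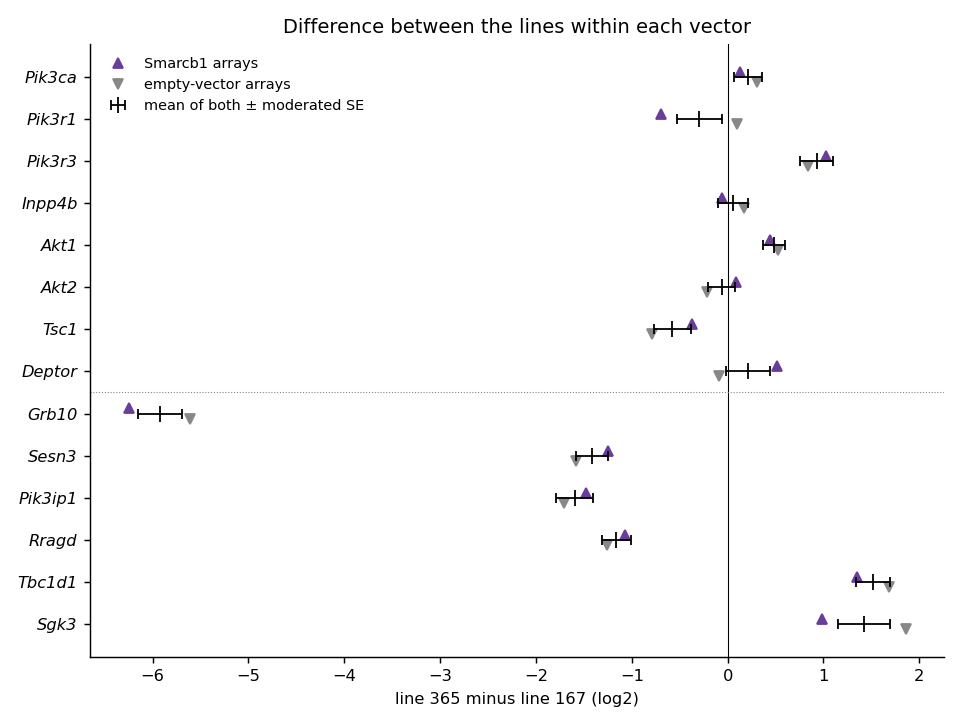
Log2 signal in line 365 minus line 167 (horizontal axis) for the 8 regulators (above the dotted line) and for 6 genes of the wider pathway list. Upward triangles are the Smarcb1 arrays, downward triangles the empty-vector arrays, and black bars the mean of both with its moderated SE. Pik3r3 lies to the right in both vectors, and Grb10 is the farthest to the left.

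The rest of the pathway was read from a list of 86 genes that includes the 8, of which 80 were tested, 2 lay below the filter level and 4 are not analysed here. With Smarcb1, 0 of the 80 passed limma's test over all genes, and 11 had an unadjusted p below 0.05, 4 higher and 7 lower, where 11.6% of all tested genes did. The median change over the 80 genes was 0.01 in line 365 and -0.03 in line 167, against -0.01 in line 365 and -0.06 in line 167 for all tested genes. Of the 80, 3 were higher by 1.5-fold or more in each line, against 2.79% of all tested genes. Lower by that size in each line were 4 of the 80, against 1.35%. Outside the 8 regulators, 1 of 72 was higher (Irs1) and 2 were lower (Ddit4 and Sesn2).

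Irs1, the adaptor that links insulin and IGF receptors to PI3K, had 8.56 in line 365 and 7.78 in line 167 with Smarcb1, against 7.27 in line 365 and 6.77 in line 167 with empty vector (mean log2 change 1.15 ± 0.18, moderated SE; limma adjusted p = 0.138). As the median over its probe sets the change was 0.75. Ddit4, a stress-induced inhibitor of mTORC1 that acts through the TSC complex, had 7.03 in line 365 and 8.18 in line 167 with Smarcb1, against 8.01 in line 365 and 8.97 in line 167 with empty vector (mean -0.88 ± 0.17, moderated SE; limma adjusted p = 0.181). Sesn2, a leucine sensor upstream of mTORC1, had 6.56 in line 365 and 6.32 in line 167 with Smarcb1, against 7.28 in line 365 and 7.53 in line 167 with empty vector (mean -0.96 ± 0.22, moderated SE; limma adjusted p = 0.240). Only Irs1 and Sesn2 of the 3 added genes had Smarcb1 arrays that did not overlap with the empty-vector arrays. Of all tested genes, 13.6% had both Smarcb1 arrays above both empty-vector arrays and 15.5% had both below.

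Grouped by role, of 5 class I regulatory subunit genes tested, 1 was at least 1.5-fold higher in both lines and 1 at least 1.5-fold lower. Of 9 genes of the mTOR complexes Deptor alone reached that size in both lines, and of 6 lipid phosphatase genes Inpp4b alone. Of 5 receptor adaptor genes 1 did (Irs1, higher), and of 5 stress regulator genes 2 (Ddit4 and Sesn2, both lower). Of 14 amino acid sensing genes, a group in which Sesn2 was not placed, 0 did, of 9 AKT substrate genes 0, and of 4 mTORC1 target genes 0. Among all tested genes, 2.79% were higher and 1.35% lower by that size in both lines.

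**Figure D4:**
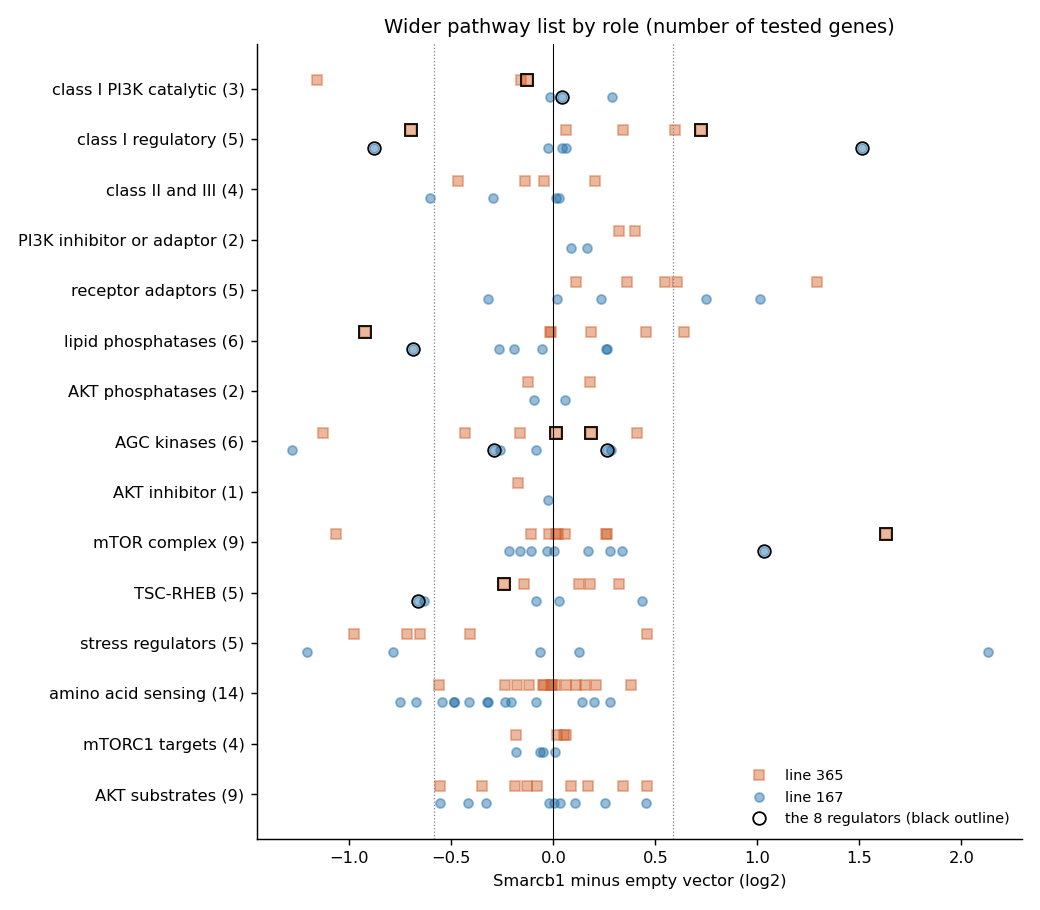
Log2 change with Smarcb1 against empty vector (horizontal axis) of the 80 tested genes of the wider pathway list, grouped by role, in line 365 (squares) and line 167 (circles), with the 8 regulators outlined in black. Dotted lines mark 1.5-fold. Most genes lie inside the dotted lines, and Pik3r1 and Pik3r3 are at opposite ends of the class I regulatory row.

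Between the lines, 15 of the 80 genes passed the limma test, 3 higher and 12 lower in line 365, against 5.31% and 5.64% of all tested genes. Grb10, an imprinted adaptor that restrains insulin receptor and mTORC1 signalling, had signals of 4.39 with Smarcb1 and 4.28 with empty vector in line 365, against 10.6 with Smarcb1 and 9.89 with empty vector in line 167. The line 365 signals lay at the filter level of 4.27, so the size of this gap is uncertain (log2 -5.93 ± 0.23, moderated SE; limma adjusted p = 0.00231). Pik3ip1, an inhibitor of the PI3K catalytic subunit, averaged 5.79 in line 365 and 7.39 in line 167 (adjusted p = 0.0164). The sestrin gene Sesn3 averaged 7.75 in line 365 and 9.17 in line 167 (adjusted p = 0.0156), and Rragd, a Rag GTPase that recruits mTORC1 to lysosomes, 8.11 in line 365 and 9.27 in line 167 (adjusted p = 0.0189). Higher in line 365 were Tbc1d1, an AKT substrate of glucose transport, at 8.82 in line 365 and 7.31 in line 167 (adjusted p = 0.0148), and the AKT-related kinase gene Sgk3, at 6.72 in line 365 and 5.29 in line 167 (adjusted p = 0.0417). With the line alone in the model the calls of Rragd (limma adjusted p = 0.126) and Sgk3 (adjusted p = 0.128) ended.

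For the 4 regulators whose signal spanned at least 1 log2 unit over the arrays, genes with a similar pattern were sought. Likeness was the root mean square distance between values centred on each gene's mean, over 4 arrays. Genes with placeholder symbols, such as those ending in Rik, and olfactory or vomeronasal receptor genes were left out. The 3 nearest of the other tested genes are given. For Deptor these were Micall2, Ttll7 and Cgnl1, at distances of 0.10, 0.10 and 0.12. Micall2 was higher with Smarcb1 by 1.78 in line 365 and 1.18 in line 167. For Pik3r1 they were Gypc, Thsd7a and Draxin, each at 0.09, and for Pik3r3 Galnt7, Oard1 and Bst2, at 0.06, 0.06 and 0.08. For Tsc1 they were Blvra, Sfxn2 and Bcl3, at 0.02, 0.02 and 0.03. These distances rest on 4 arrays and are descriptions.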

How the data were processed

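The authors deposited log2 signals per probe set, and the submitters' processing notes name RMA and Affymetrix Expression Console for making them. RMA brings all arrays to one distribution, which hides any shift in total RNA per cell. Tool versions, annotation release and genome build: not given in the sources used here. No further normalization was applied to the 35556 probe sets (array medians from 5.03 to 5.07), and the platform annotation named their genes. Per gene, the single-symbol probe set of highest mean was used (19938 genes), and the dimmest 30% of genes (mean under log2 4.27) were dropped, leaving 13956.

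The model had terms for vector and cell line and was fitted in R 4.3.3 by lmFit of limma 3.58.1 followed by trended eBayes, which leaves 1 residual degree of freedom beside 3.75 prior ones. P-values are two-sided, adjusted by Benjamini-Hochberg over all tested genes, with a threshold of 0.05. Standard errors are moderated across genes and are not the spread of a gene between lines. Pairing by line follows from the design, and arrays of a line deviated together (correlation 0.770 across genes). The members, the gene lists and the tests were chosen with earlier results of these data known. Named genes were the 8 members, list genes that differed by 1.5-fold or more with like sign in each line, and, between the lines, up to 4 called list genes of smallest p in each direction. Ddit4l, Pik3cb and Prr5 were chosen after their values were seen. For arrays, their number limits the precision.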

Additional observations from a re-analysis of the deposited data

Results flagged for a closer look

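For 3 of the genes named, the differences between Smarcb1 and empty vector had opposite signs in the lines, as for 39.8% of all tested genes. With 1 array for each line and vector, the difference between the lines was not tested. For Pik3ca the change in line 365 minus that in line 167 was -0.17, and for Akt2 it was 0.30. The dimmer probe set of Akt2 was lower with Smarcb1 in both lines, at -0.02 in line 365 and -0.16 in line 167 on the log2 scale. Ddit4l, which encodes a relative of the mTORC1 inhibitor Ddit4, was named after its values were seen. Ddit4l had the widest gap of the 3, at -2.78, and a limma adjusted p of 0.715 for the vector. Its signals were 5.53 in line 365 and 7.30 in line 167 with Smarcb1, against 6.18 in line 365 and 5.17 in line 167 with empty vector.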

How the results depend on the processing

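The counts of genes that passed and the values of the 8 regulators and Smarcb1 in both comparisons were recomputed under 7 alternatives (6 for Inpp4b). So were the changes with Smarcb1 of Irs1, Ddit4, Sesn2 and Ddit4l. The line differences of Grb10, Sesn3, Pik3ip1, Rragd, Tbc1d1 and Sgk3 were recomputed as well. Values of Pik3cb and Prr5 and the change of Sgk3 with Smarcb1 were not recomputed. Neither were counts of 1.5-fold changes, of overlap and of sign, nor the nearest genes. Of 110 values of the 8 regulators so obtained, 106 kept their direction and their side of the threshold. The exceptions were the line calls of Pik3r3 and Akt1 given above and Pik3ca, whose mean change with Smarcb1 was 0.0067 after quantile normalization and 0.011 after cyclic loess, both positive. With Smarcb1, 0 regulators and 0 genes of the wider list passed limma under any of these alternatives. The lowest adjusted p among regulators was 0.0828, for Deptor. Inpp4b had no value with the filter at the 50th percentile, because it lay below it.

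The number of genes that passed for Smarcb1 against empty vector was 9 as reported, 68 without the filter, 48 after quantile normalization, 49 after cyclic loess and 101 with the filter at the 50th percentile. Without the cell line term, which is the pairing by line, 0 genes passed for the vector, with 450 at an unadjusted limma p below 0.05. The matching alternative for the line comparison dropped the vector term, and 653 genes passed between the lines in place of 1528. Between the lines the count of regulators that passed was 2 with the filter at the 50th percentile and 0 without the vector term. That of the wider list was 7 without the vector term in place of 15. The cause of these shifts was not tested. Signals near the filter level, as for Inpp4b, limit how well a decrease can be measured.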

Other observations

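Some genes of the wider list differed more with Smarcb1 in line 365 than in line 167, and others more in line 167. The median size of the change over the 80 genes, regardless of sign, was 0.184 in line 365 and 0.245 in line 167. Examples of genes with the larger difference in line 365 are named here after their values were seen, so they do not describe the list. Pik3cb, which encodes the catalytic subunit p110-beta, had 8.35 in line 365 and 8.38 in line 167 with Smarcb1, against 9.51 in line 365 and 8.40 in line 167 with empty vector. Prr5, a subunit of mTORC2, had 7.35 in line 365 and 7.58 in line 167 with Smarcb1, against 8.42 in line 365 and 7.61 in line 167 with empty vector. For both genes the difference rests on the empty-vector array of line 365, which lay above the other arrays. The difference for Sgk3 was -1.13 in line 365 and -0.26 in line 167. In limma's test over all genes their adjusted p for the vector lay between 0.439 for Sgk3 and 0.542 for Prr5, and the difference between the lines was not tested. The differences had opposite signs in the lines for 20 of the 80 tested genes of the list (25%), against 39.8% of all tested genes.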
